A study of Mus musculus with 7 samples.

Results

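The genes described here are 39 mouse genes that encode the enzymes and carriers by which a cell makes, lengthens, desaturates, activates, binds and burns fatty acids. They were taken by gene symbol from a list of these pathways, with no threshold on measured values, and all 39 were among the 27998 genes of the deposited count table. They fall into 6 genes of substrate supply and de novo synthesis, 6 of desaturation, 8 of elongation, 12 of activation, uptake and binding, and 7 of beta-oxidation. Their levels were followed across the oligodendrocyte lineage clusters of 3 single-cell libraries, each made from fluorescence-sorted oligodendrocyte lineage cells (OLCs) of tissue labelled as motor and cingulate cortex, and called neocortex in the study's methods, of mice at P90 (11 to 14 weeks) on a C57BL/6-B6CBA background. Every mouse carried Emx1-Cre, which is active in the dorsal forebrain lineage, and a Sox10-driven dual reporter that gives TdTom after Cre and GFP without it. Control dOLCs (dorsally derived, TdTom+) and control vOLCs (ventrally derived, GFP+) came from Emx1-Cre:Sox10-GFP-TdTom animals, 4 mice, and ectopic vOLCs (GFP+) from 2 mice that carried in addition Sox10-GFP-DTA, in which diphtheria toxin fragment A kills Cre-expressing OLCs. Some dOLCs survive this ablation, so the GFP+ gate, and not the genotype alone, defines the ectopic cells. The DTA allele also gives GFP where Cre has not acted on it, and whether surviving dOLCs fell in this gate was not tested.

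There was 1 library per condition and the mice within it were not told apart, so no test between conditions was possible. Values are UMIs (unique molecular identifiers, here counted molecules) summed over the cells of a cluster and given per 1000000 UMIs (CPM), and differences are log2 ratios of these levels. All 95% intervals cover counting error only and not the spread between mice. The deposited annotation kept 5804 control dOLCs, 925 control vOLCs and 2562 ectopic vOLCs. Their cells held a median of 3489.5, 5022 and 5318.5 UMIs per cell, so the control dOLC cells were the shallowest. The mature cluster group MOL5/6 (clusters MOL5/6a to MOL5/6d) held 3777, 561 and 1842 of these cells, and the oligodendrocyte progenitor cell (OPC) cluster 853, 121 and 330. Control and ectopic libraries shared at most 29 cell barcodes. Mature markers (Mog, Mag, Mobp and 5 others) summed to between 27472 and 31641 CPM in MOL5/6, whereas the marker lists of microglia, endothelial cells, and pericytes or fibroblasts summed to at most 6.16 CPM there.

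Myelin is unusually rich in lipid, and oligodendrocytes build much of it from fatty acids made in the cell itself. Citrate is cleaved to acetyl-CoA by Acly, and acetate released from N-acetylaspartate by Aspa is a further source. Acaca carboxylates acetyl-CoA, Fasn assembles the saturated chain, Scd and Fads enzymes insert double bonds, and the Elovl condensing enzymes with Hsd17b12 and Tecr extend the chain to the very long species typical of myelin. Acsl enzymes couple fatty acids to CoA, Fabp proteins bind them, and the Cpt, Acad and Hadh enzymes carry them into mitochondria and oxidise them.

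The 250 bases upstream of the RefSeq transcription start (GRCm38.p6, the patch series of mm10) are shown for 3 genes, chosen after their values were seen. Fasn and Acly were lower in ectopic MOL5/6 cells, whereas Hadhb, which starts next to Hadha on the opposite strand, was higher than in control dOLCs while Hadha was not. Each is written 5′ to 3′ on the strand of the gene, and capitals mark CCAAT boxes (CCAAT) and GC boxes (GGGCGG) found on either strand.
Fasn, chr11:120824548-120824797, minus strand: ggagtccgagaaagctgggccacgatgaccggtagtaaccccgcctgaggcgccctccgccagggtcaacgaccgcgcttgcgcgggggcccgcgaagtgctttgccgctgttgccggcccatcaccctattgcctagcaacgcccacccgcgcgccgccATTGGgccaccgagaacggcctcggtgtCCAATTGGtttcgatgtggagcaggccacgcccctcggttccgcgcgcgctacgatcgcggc
Acly, chr11:100528001-100528250, minus strand: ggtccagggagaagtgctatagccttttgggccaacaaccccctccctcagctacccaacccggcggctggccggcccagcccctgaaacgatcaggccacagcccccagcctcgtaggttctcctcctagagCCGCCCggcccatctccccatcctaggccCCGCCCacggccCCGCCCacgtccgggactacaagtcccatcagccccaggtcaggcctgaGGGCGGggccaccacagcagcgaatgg
Hadhb, chr5:30155003-30155252, plus strand: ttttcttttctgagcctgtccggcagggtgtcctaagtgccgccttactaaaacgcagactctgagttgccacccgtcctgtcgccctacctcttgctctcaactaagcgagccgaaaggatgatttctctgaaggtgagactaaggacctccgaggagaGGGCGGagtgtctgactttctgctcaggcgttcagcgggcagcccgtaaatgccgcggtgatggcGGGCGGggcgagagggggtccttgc
The Fasn window held 3 CCAAT boxes, of which a pair overlaps, the Acly window 4 GC boxes and the Hadhb window 2 GC boxes. Windows were given for 35 of the 39 genes, and not for Scd1, Scd2, Fads1 and Fabp5. A GC box was present in 22 of the 35 windows, against 32.74% of 32851 mouse promoters, and a CCAAT box in 15, against 33.85%. A sterol regulatory element (SRE, TCACNCCAC) was in none of the 35, where 1.05% of all promoters held one, and an E-box (CACGTG) was in 1, Elovl5, against 6.02%. These are matches of letters and not measured sites of binding.

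In mature MOL5/6 oligodendrocytes, the synthesis genes Fasn and Acly and the desaturases Scd2 and Fads6 were lower in the ectopic vOLCs than in control dOLCs by at least 1.5-fold, and no member was higher by that much. Of the 39 genes, 27 passed the filter of 50 UMIs over both libraries and 10% of cells in one of them. Their median log2 ratio was −0.13, beside −0.03 over all 5218 genes that passed. The corresponding shares of all genes were 11.5% lower and 1.13% higher, so the count of 4 among 27 was near the background. The other 12 genes did not pass the filter in MOL5/6: Acacb, Fads2, Fads3, Elovl2, Acsl4, Acsl5, Acsl6, Acsbg1, Fabp3, Fabp7, Cpt1a and Cpt2. Scaling by TMM or median-of-ratios factors raised the median of all genes to 0.13 and 0.16, and the directions of Elovl4, Acsl3, Acot7, Acadvl and Hadha turned under either. The fatty acid genes past 1.5-fold were then 4 lower and 2 higher (Me1 and Hadhb) with TMM, and 3 lower and 2 higher with median-of-ratios factors.

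**Figure D1:**
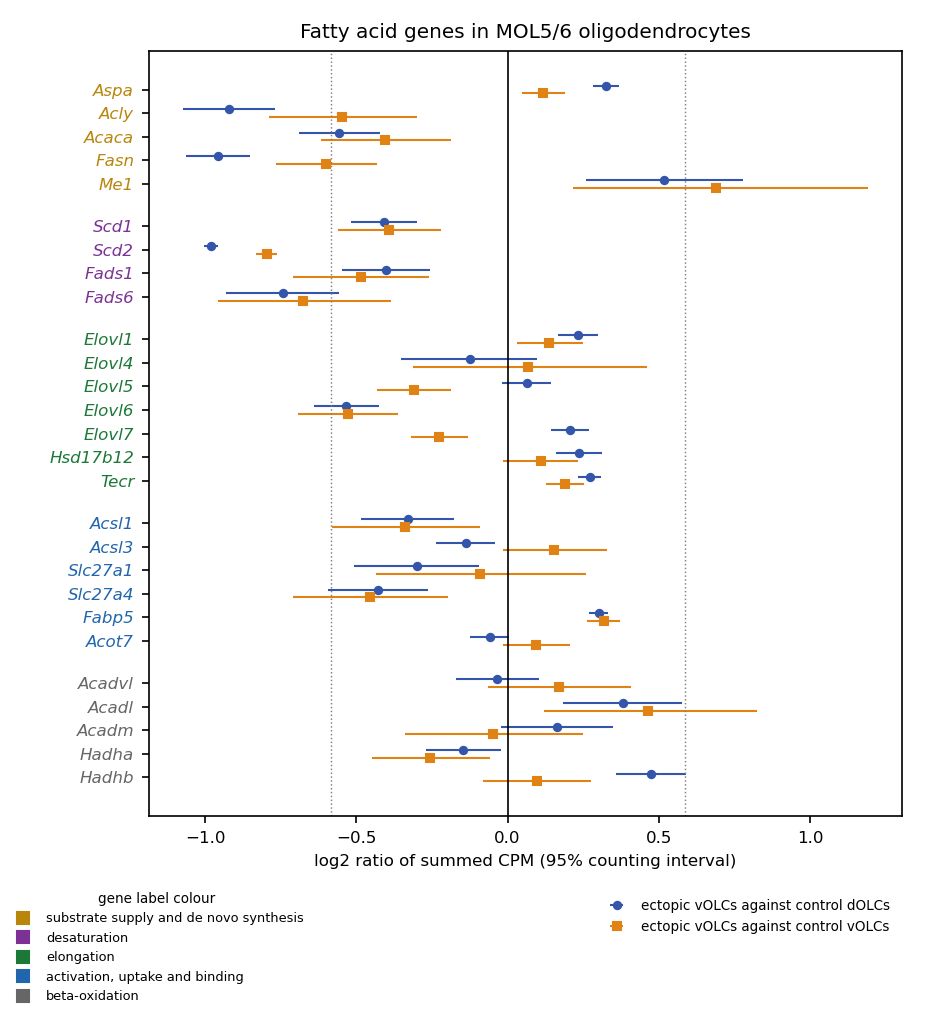
Log2 ratio of summed CPM in MOL5/6 cells for the 27 fatty acid genes that passed the filter, ectopic vOLCs against control dOLCs (circles) and against control vOLCs (squares), with 95% counting intervals. Gene labels are coloured by role, the solid line is 0 and dotted lines are 1.5-fold. All 4 desaturation genes lie left of 0 in both comparisons, from −0.98 to −0.40 against control dOLCs.

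Scd2, a stearoyl-CoA desaturase that makes monounsaturated fatty acids, had the most UMIs of the members and, among the 27 past the filter and as counted, the greatest difference. The gene lies at chr19:44293674-44306864 on the plus strand (mm10, GENCODE). Its MOL5/6 level was 3697 CPM in control dOLCs, 3252 CPM in control vOLCs and 1873 CPM in ectopic vOLCs. The log2 ratio was −0.98 (−1.005 to −0.96) relative to control dOLCs. Relative to control vOLCs it was −0.80 (−0.83 to −0.76), while the control libraries differed by −0.19. The ectopic level lay below both control levels, which came from the same 4 mice, so the gap between the controls holds no spread between mice. The study itself listed Scd2 among genes chosen on these cells, so this is not independent evidence of its direction. The 39 genes together gave 9077 CPM in control dOLCs, 8831 CPM in control vOLCs and 7665 CPM in ectopic vOLCs, and without Scd2 the sums were 5379, 5579 and 5792 CPM, in the opposite order. Scd2 made up 40.7% (40.5 to 41.0, exact binomial interval) of the summed UMIs of the list in control dOLCs and 24.4% (24.1 to 24.7) in ectopic vOLCs.

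Of the 5 synthesis genes measured, Fasn and Acly were lower by 1.5-fold. Fasn (chr11:120805846-120824547, minus strand) stood at 181 CPM in control dOLCs, 141 CPM in control vOLCs and 93.4 CPM in ectopic vOLCs, a log2 ratio of −0.96 (−1.06 to −0.85) to the first. Acly (chr11:100476353-100528000, minus strand) stood at 86.9, 67.1 and 46.0 CPM in the same order, with a log2 ratio of −0.92 (−1.07 to −0.77). For both genes the 3 intervals of the levels did not overlap, and control vOLCs lay between the other libraries. Acaca, the acetyl-CoA carboxylase of this pathway, was lower by less, at −0.56 (−0.69 to −0.42); it is named here after its value was seen. Aspa and the malic enzyme Me1, which yields NADPH, had ratios above 0. Aspa was 582, 672 and 729 CPM, a log2 ratio of 0.33 (0.28 to 0.37) to control dOLCs, and Me1 had a log2 ratio of 0.52 (0.26 to 0.78). Me1 was found in 12.1% of ectopic, 6.25% of control dOLC and 6.95% of control vOLC cells, so it passed the filter only through the ectopic library, where it was higher, and its ratio is a description. The second carboxylase Acacb had no UMI in any MOL5/6 cell.

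Each of the 4 desaturases that passed the filter was lower in ectopic vOLCs than in either control, with intervals below 0 against control dOLCs. Fads6, a member of the fatty acid desaturase family (chr11:115279622-115297663, minus strand), stood at 53.5, 51.0 and 31.97 CPM, a log2 ratio of −0.74 (−0.93 to −0.56) to control dOLCs. Its controls overlapped and the ectopic level lay below both. Scd1 and the delta-5 desaturase Fads1 had log2 ratios of −0.41 and −0.40. Fads2 and Fads3 were near the limit of detection, with 17 and 2 UMIs in control dOLCs.

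Elongation showed no common direction. The median log2 ratio of its 7 measured genes was 0.21, with the range from −0.53 to 0.27 and none past 1.5-fold. Tecr, the reductase of the last step of the elongation cycle, was among the 5 members with the most UMIs and stood at 830, 879 and 1002 CPM. Elovl7 stood at 305, 412 and 352 CPM, so the ectopic level was between the controls and its log2 ratio was 0.21 against control dOLCs but −0.23 against control vOLCs. The lowest ratio belonged to Elovl6, which elongates saturated and monounsaturated chains, at −0.53 (−0.64 to −0.43).

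The 6 genes of activation, uptake and binding ranged from −0.43 to 0.30 and the 5 of beta-oxidation from −0.15 to 0.47, without any past 1.5-fold. Fabp5, a fatty acid-binding protein, stood at 1153 CPM in control dOLCs, 1140 CPM in control vOLCs and 1421 CPM in ectopic vOLCs. The controls overlapped and the ectopic level was higher, with a log2 ratio of 0.30 (0.27 to 0.33). Acot7, an acyl-CoA thioesterase, was nearly level at 327, 294 and 313 CPM. The pair Hadha and Hadhb, the alpha and beta subunits of the mitochondrial trifunctional protein, was singled out after its values were seen. Hadha was at −0.15 (−0.27 to −0.02) and Hadhb at 0.47 (0.36 to 0.59) against control dOLCs. Against control vOLCs the values were −0.25 and 0.10, and the Hadhb interval there (−0.08 to 0.28) held 0. Control vOLCs were themselves 0.38 above control dOLCs for Hadhb.

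Against control vOLCs, 27 genes passed the filter with a median log2 ratio of −0.09. Of these, 3 were lower by 1.5-fold (Scd2, Fasn and Fads6), where 12.4% of all genes were, and Me1, which again passed only through the ectopic library, was higher at 0.69 (0.22 to 1.19), where 1.46% were. With either TMM or median-of-ratios factors, only Scd2 stayed lower by 1.5-fold and 2 genes (Me1 and Acadl) were higher. Between the controls, none of the 26 genes that passed was past 1.5-fold in either direction, and the median was −0.01. The share of all genes was 0.731% lower and 2.56% higher in control vOLCs than in control dOLCs. The comparisons share libraries and are given side by side only.

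The cells behind these sums were spread differently over the 4 subclusters. MOL5/6a and MOL5/6d held 902 of 3777 MOL5/6 cells in control dOLCs (23.9%, exact binomial interval 22.5 to 25.3), 272 of 561 in control vOLCs (48.5%, 44.3 to 52.7) and 1737 of 1842 in ectopic vOLCs (94.3%, 93.1 to 95.3). Scd2 differed between these subclusters within control dOLCs as well, at 2539 and 2558 CPM in MOL5/6a and MOL5/6d and at 4077 and 4490 CPM in MOL5/6b and MOL5/6c. Fasn followed the same order, with 103 and 131 CPM against 195 and 230 CPM. The clusters were drawn from the same expression data, these genes included, so their levels in a cluster are a description.

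Within subclusters the differences of Scd2 and Fasn were smaller. In MOL5/6a the log2 ratio of Scd2 against control dOLCs was −0.48 (−0.53 to −0.42), and in MOL5/6d it was −0.56 (−0.60 to −0.51). In MOL5/6b and MOL5/6c, where the ectopic library had only 42 and 63 cells, it was −0.18 and −0.09. Fasn was at −0.16 (−0.45 to 0.13) in MOL5/6a and −0.58 (−0.76 to −0.40) in MOL5/6d. Acly stayed past 1.5-fold, at −0.64 in subcluster a, −1.22 in b (5 ectopic UMIs, interval −2.85 to 0.0086), −0.83 in c and −0.72 in d. Against control vOLCs it was at −0.34 (−0.74 to 0.074) in subcluster a and, with 11 control UMIs, at 0.20 (−0.66 to 1.22) in d. In MOL5/6a only Acly of 27 genes was lower by 1.5-fold, beside 6.41% of all genes, and none was higher, beside 1.47%. In MOL5/6d Acly and Fabp7 were lower and Me1 was higher of 29 genes, beside 3.31% and 1.15%. Fabp7 passed the filter there only through control dOLCs, where it was high, so it is a description and no support for that count. When each subcluster was weighted to its UMI share in control dOLCs, the log2 ratio over MOL5/6 was −0.22 for Scd2, −0.19 for Fasn, −0.24 for Fads6 and −0.93 for Acly. In that weighting Acly alone of the 27 genes was past 1.5-fold, beside 6.19% of all genes lower and 1.51% higher. The directions of 9 genes turned (Scd1, Elovl1, Elovl4, Elovl5, Elovl7, Hsd17b12, Acsl3, Acadvl and Acadm). The weighting rests largely on the 42 and 63 ectopic cells of MOL5/6b and MOL5/6c.

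**Figure D2:**
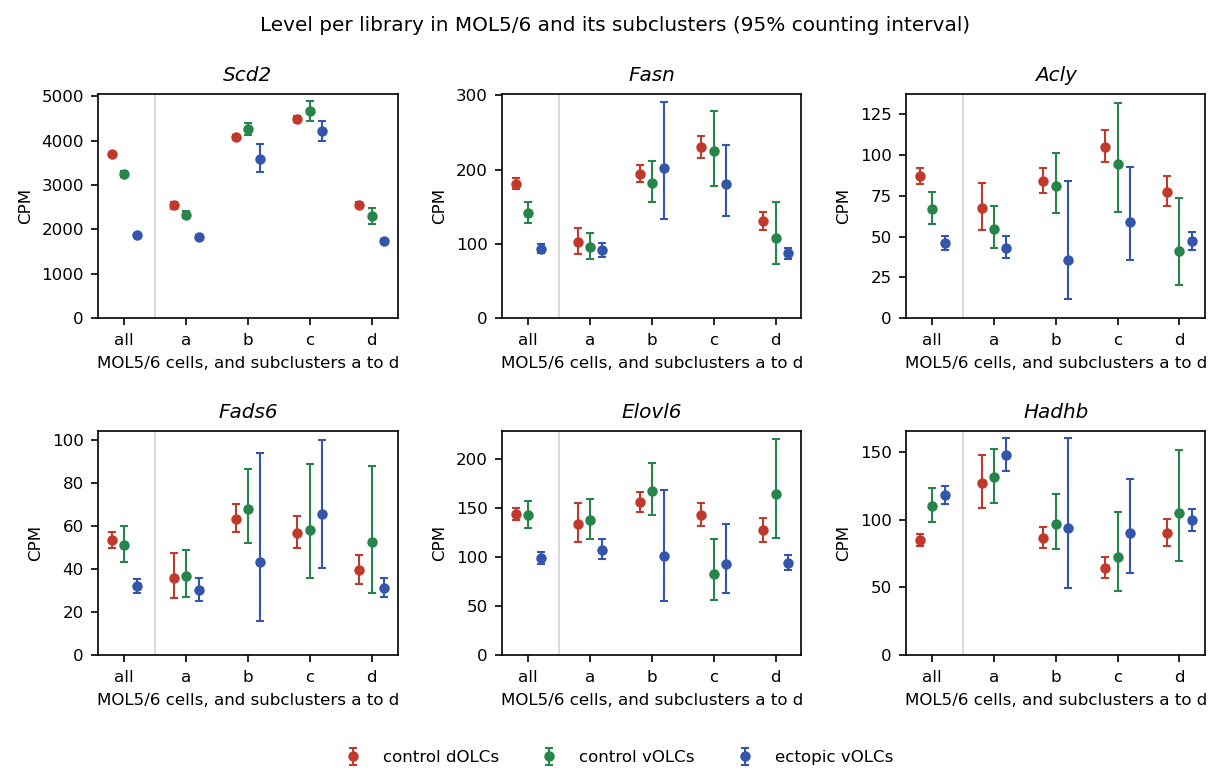
Level in CPM of 6 genes in all MOL5/6 cells and in subclusters a to d, for control dOLCs, control vOLCs and ectopic vOLCs (1 library each, bars are 95% counting intervals, axes start at 0). Scd2 and Fasn are lower in subclusters a and d than in b and c in each library, and the ectopic point of Acly is the lowest in subclusters a, b and c.

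The ratio also moved with the length of the transcript. Over 5082 genes in MOL5/6 with an annotated length, Spearman's rho of the length of the longest transcript with the ectopic to control dOLC log2 ratio was −0.54, across genes that share the same 2 libraries. Over the 27 fatty acid genes it was −0.82. Between the controls rho was −0.09 over all genes and −0.36 over 26 fatty acid genes. In OPCs, for ectopic vOLCs against control dOLCs, it was −0.36 over all genes and −0.07 over 29 fatty acid genes. The 4 genes lower by 1.5-fold had a median length of 5203 bases and the others 2795 bases. After the median of genes of like length was taken off, the log2 ratio was −0.73 for Acly, −0.60 for Scd2, −0.36 for Fads6 and −0.35 for Fasn. The median was then 0.050 over the 5 synthesis genes, −0.33 over the 4 desaturases and 0.11 over the 7 elongation genes. It was −0.16 over the 6 genes of activation, uptake and binding, 0.04 over the 5 of beta-oxidation and 0.00 over all 27. The part of transcript length in these differences was not tested.

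**Figure D3:**
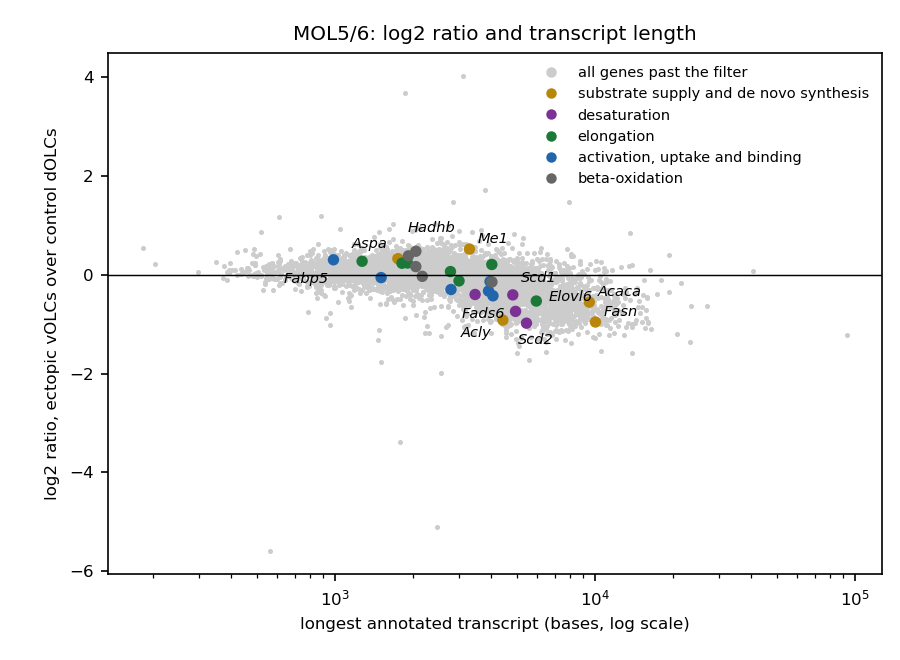
Log2 ratio of CPM, ectopic vOLCs over control dOLCs, in MOL5/6 against the length of the longest annotated transcript (bases, log scale), with each gene past the filter as a grey point and the fatty acid genes coloured by role. Points fall to the right, with a rho of −0.54 over all genes, and Acly and Scd2 lie low among genes of their length.

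The remaining mature clusters gave the same sign for the leading genes, with fewer cells. In MOL2a the log2 ratio against control dOLCs was −0.87 for Scd2, −1.10 for Fasn, −0.85 for Acly and −1.43 for Fads6. In MOL2b the ratios were −0.71, −0.96, −0.66 and −0.02 in the same order, and in MOL1 they were −0.83, −0.70, −0.22 and −1.02. The intervals of Fads6 in MOL2b (−0.74 to 0.66) and of Acly in MOL1 (−0.87 to 0.41) held 0. In MOL2a, control vOLCs were themselves below control dOLCs for the 4 desaturases, from −0.65 to −0.25, and for the 5 synthesis genes, from −0.58 to −0.01. In MOL2b and MOL1 both roles went in both directions between the controls.

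The genes outside the list that belong to the same pathways were 90, of which 86 were in the table and 33 passed the filter in MOL5/6. Of these, 3 were lower by 1.5-fold in the ectopic vOLCs than in control dOLCs and none was higher, and their median log2 ratio was 0.04. The share of all genes lower was 11.5%, above that of these genes. The 3 are on the list of regulators. Srebf1, which encodes a transcription factor of lipid synthesis, was lower at −0.77 (−0.89 to −0.64), its relative Srebf2 at −0.76 (−0.91 to −0.60), and Scap, which escorts both proteins in the cell, at −0.69 (−0.88 to −0.49). These ratios are as counted, with neither transcript length nor subclusters taken into account. Their part in the levels of the synthesis genes was not tested. The 3 highest ratios were those of the sphingolipid desaturase Degs1 at 0.48, the enoyl-CoA isomerase Eci1 at 0.39 and the thioesterase Acot1 at 0.37.

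Across the clusters of control dOLCs, some members differed in level between stages and others hardly did. Aspa was 116 CPM in OPCs, 385 CPM in COP/NFOL/MFOLa, the cluster of newly formed cells, and 582 CPM in MOL5/6. Scd2 was 1442 CPM in OPCs, 1992 CPM in COP/NFOL/MFOLa and 3697 CPM in MOL5/6. Elovl7 stood at 84.9, 514 and 305 CPM in that order, and at 551 CPM in MOL2a. Fabp5 stood at 425, 728 and 1153 CPM. Markers of mature oligodendrocytes stood in these OPCs at 19.9% of their MOL5/6 level, and their part in the OPC levels was not tested. With that share of each gene's MOL5/6 level taken off, OPCs had 708 CPM of Scd2, 24.3 CPM of Elovl7 and 196 CPM of Fabp5, and Aspa was below 3 UMIs. Fabp7, a binding protein of glial progenitors, ran the other way, from 452 CPM in OPCs to 64.2 CPM in COP/NFOL/MFOLa and 25.2 CPM in MOL5/6. Tecr hardly differed between OPCs and MOL5/6, at 837 and 830 CPM.

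**Figure D4:**
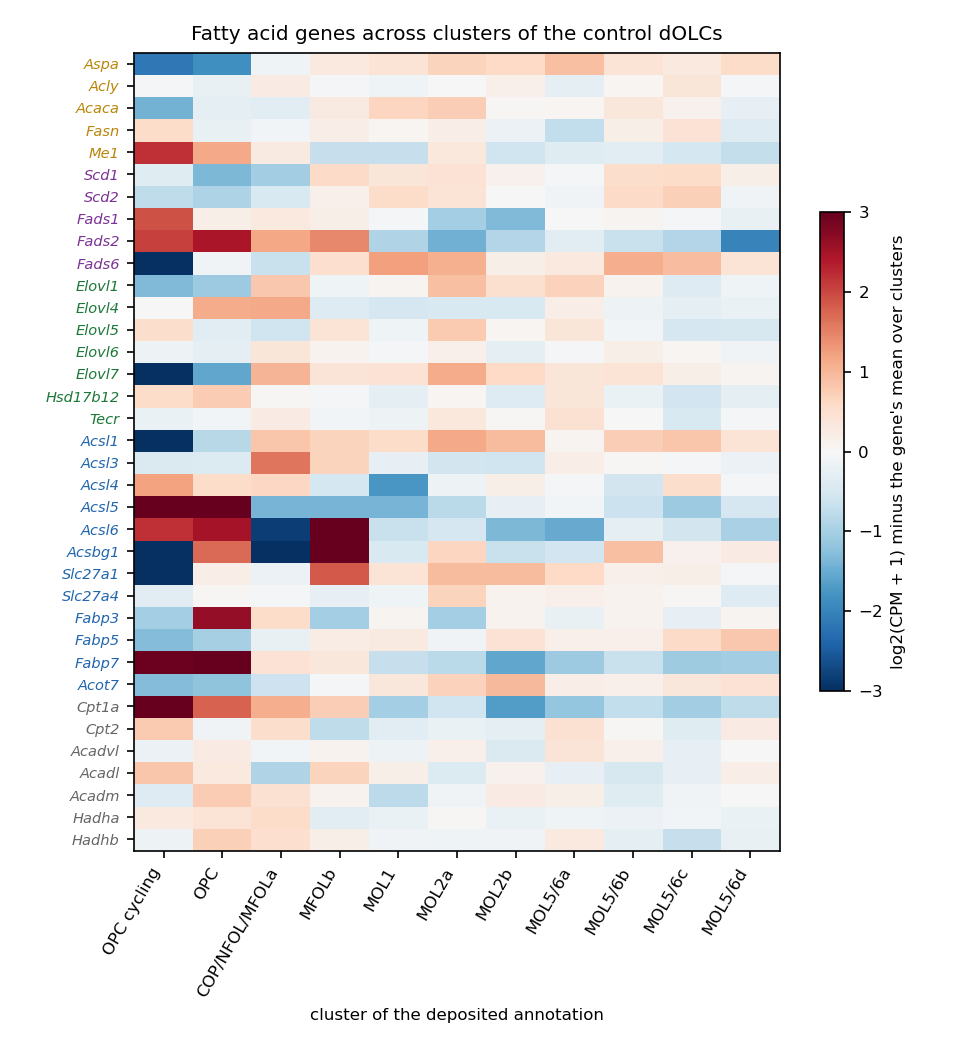
Level of the 36 fatty acid genes with at least 50 UMIs in control dOLCs, in each cluster of the deposited annotation, as log2(CPM + 1) minus the mean of that gene over clusters (red higher, blue lower, colours end at 3 and −3). Aspa, Elovl7 and Acsl1 are low in the OPC columns, whereas Fabp7, Acsl5, Fads2 and Cpt1a are high there. OPC cycling holds only 17 cells.

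In control dOLCs, 29 genes passed the filter between OPCs and MOL5/6. A difference of at least 4-fold was seen for 3 of them, 1 lower and 2 higher in OPCs, counts near or below the shares of all genes. Aspa was lower in OPCs by 2.33 (log2), where 2.39% of all genes were lower by 4-fold; its OPC level did not exceed the mature share by 3 UMIs. Fabp7 was higher in OPCs at 4.17 and the acyl-CoA synthetase Acsl6 at 3.39, where 13.8% of all genes were higher. Both passed the filter only through the OPCs, where they were high (10.9% of OPCs against 1.43% of MOL5/6 cells for Acsl6, and 56.5% against 9.32% for Fabp7). Acsl6 had 38.9, 40.5 and 36.6 CPM in OPCs of control dOLCs, control vOLCs and ectopic vOLCs, levels whose intervals overlapped. Fabp7 had 452, 299 and 580 CPM in the same order, and these intervals did not overlap. The median log2 ratio of OPCs to MOL5/6 was −0.09 over the 29 genes and 0.36 over all genes. In control vOLCs 5 of 28 genes were lower in OPCs by 4-fold and 1 was higher. In ectopic vOLCs 5 of 30 were lower and 3 higher. Elovl7 was among the lower genes in both, at −2.54 and −2.84. The shares of all genes were not computed for these 2 libraries and some genes passed only through the group where they were high, so these counts are a description.

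Acsbg1, a bubblegum-type acyl-CoA synthetase also known from astrocytes, was at 206 CPM in the MFOLb cluster of control dOLCs and at 11.9 CPM in MOL5/6; this cluster was noticed after its values were seen. Astrocyte markers summed to 3427 CPM in MFOLb of control dOLCs, 4199 CPM in control vOLCs and 2771 CPM in ectopic vOLCs, with 5 or 6 of the 6 markers detected, against 225 to 266 CPM in MOL5/6. The part of astrocyte RNA in the MFOLb level was not tested.

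In OPCs, Scd2 was again lower in the ectopic vOLCs than in control dOLCs, and so were Aspa and Elovl7, which are low in OPCs. Of 29 genes that passed the filter, 5 were lower by 1.5-fold and none was higher, where 5.79% of all genes were lower and 5.34% higher. Their median log2 ratio was −0.10, beside 0.08 over all 6110 genes. Scd2 stood at 1442 CPM in control dOLCs, 1008 CPM in control vOLCs and 756 CPM in ectopic vOLCs, a log2 ratio of −0.93 (−1.04 to −0.83), and its 3 intervals did not overlap. Acot7 stood at 117, 83.6 and 62.4 CPM and Aspa at 116, 70.9 and 63.2 CPM, with log2 ratios of −0.90 and −0.87. Elovl7 stood at 84.9, 70.9 and 49.1 CPM, a log2 ratio of −0.79. Scd1 stood at 39.2, 20.3 and 25.8 CPM on 103, 8 and 31 UMIs, so its log2 ratio of −0.61 (−1.23 to −0.01) rests on few molecules. It was found in 11.1% of control dOLC and 8.48% of ectopic OPCs and passed the filter only through the former, where it was high, so it is no support for the count of 5. Against control vOLCs Scd1 did not pass the filter, and the ratio was 0.35 (−0.81 to 1.68). For Acot7, Aspa and Elovl7 the intervals of control vOLCs and ectopic vOLCs overlapped.

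Markers of mature oligodendrocytes were also counted in the OPC cluster, and at levels that differed between the libraries. The 8 mature markers stood at 19.9% of their MOL5/6 level in OPCs of control dOLCs, 9.20% in those of control vOLCs and 7.50% in those of ectopic vOLCs, with all 8 detected in each. Neuron markers summed to between 1090 and 1262 CPM and astrocyte markers to between 1004 and 1084 CPM in OPCs. Most of the neuron sum was Meg3, at 1026, 1186 and 1114 CPM in control dOLCs, control vOLCs and ectopic vOLCs, whereas Syt1 and Rbfox3 were at most 2.53 CPM. Slc1a2, Slc1a3 and Aldoc made up most of the astrocyte sum, whereas Gja1 and Gfap were at most 2.53 CPM. The part of other cell types in the results was not tested. Where the UMIs of the mature markers came from was not tested either, and their share was not the same for each marker. In the ectopic library Mobp had 346 CPM in OPCs and 2152 CPM in MOL5/6, and Mal 263 and 4913 CPM. Taking the summed share of the 8 markers, times the MOL5/6 level of a gene, off its OPC level in each library, an alternative chosen after seeing the data, left a median log2 ratio of 0.14 over the 29 genes, with none lower by 1.5-fold and Slc27a1 and Cpt1a higher, at 0.59 and 0.60. Cpt1a, found in 8.68% of control dOLC and 14.8% of ectopic OPCs, passed the filter only through the latter. Over all genes the median was 0.25 after the same step, with 1.87% lower and 15.3% higher. Scd2 was then at −0.20, Elovl7 at −0.10 and Acot7 at −0.41, the lowest of the 29. Scd1 turned to 0.54. Aspa was left below 3 UMIs in control dOLCs and at 8.54 CPM in ectopic vOLCs, less than the counting error of its level there (49.8 to 79.1 CPM), so it had no direction left.

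**Figure D5:**
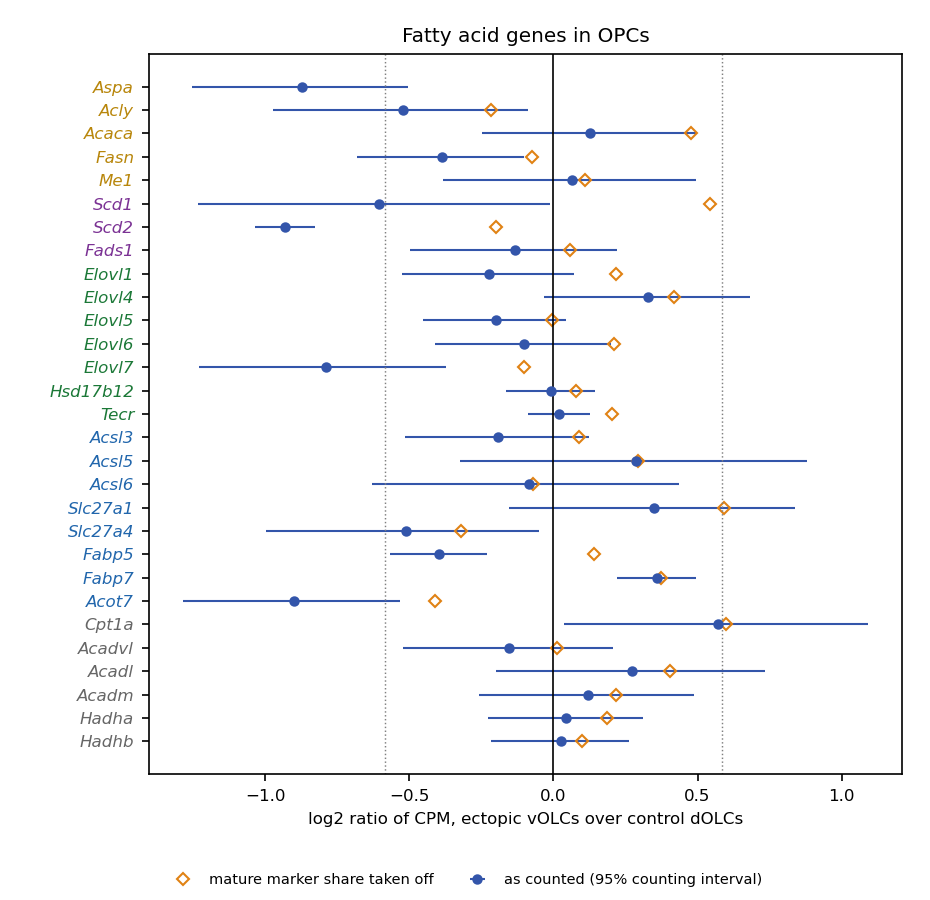
Log2 ratio of CPM in OPCs, ectopic vOLCs over control dOLCs, for the 29 genes past the filter, as counted (filled circles with 95% counting intervals, dotted lines at 1.5-fold) and after the share of the mature markers was taken off (open diamonds). Scd2 moves from −0.93 to −0.20, whereas Fabp7 stays near 0.36, and Aspa has no diamond because its control dOLC level was within 3 UMIs of the mature share.

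Against control vOLCs, whose OPCs numbered 121, 29 genes passed the filter with a median log2 ratio of −0.13. Acsbg1 was lower by 1.5-fold at −0.91, where 9.77% of all genes were. Acadm, a medium-chain acyl-CoA dehydrogenase of beta-oxidation, was higher at 1.22, the fatty acid transporter Slc27a1 at 1.03 and Fabp7 at 0.96, where 18.0% of all genes were. Acadm and Slc27a1 passed the filter only through the ectopic library, on 13 and 9 control UMIs, so their ratios are a description. Acsbg1 passed only through control vOLCs, on 21 UMIs. Between control vOLCs and control dOLCs 6 genes were lower (Aspa, Scd1, Slc27a1, Fabp5, Fabp7 and Acadm) and Acsbg1 was higher, beside 12.1% and 10.8% of all genes. The intervals of Scd1 (−2.20 to 0.079, 8 control vOLC UMIs) and Slc27a1 (−1.85 to 0.30, 9 UMIs) held 0. Scd1, Slc27a1 and Acadm passed the filter only through control dOLCs, where they were high, and Acsbg1 again only through control vOLCs, so these 4 are a description. Scd2 had log2 ratios of −0.42 (−0.59 to −0.24) to control vOLCs and −0.52 between the controls. With the mature marker share taken off, these Scd2 ratios were −0.20 and 0.0027. Between the controls 3 genes were then lower and 3 higher, Aspa at its floor included, beside 7.35% and 17.9% of all genes.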

How the data were processed

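Single OLCs had been sorted by FACS and made into 10x Genomics 3′ libraries. The deposited counts are UMI counts per gene and cell, which the authors made with Cell Ranger (version 2.1.1 in the submitters' processing notes) on mm10 and filtered with Seurat; cluster names and the percent of mitochondrial counts per cell are theirs, and cells kept by the deposited annotation were used. The 4 P0 nuclear libraries, which the labels give as mixed genotypes, were not analysed here. All values in the count table were whole. UMIs were summed per library and cluster with Python 3.11.15 and numpy 2.4.6 and scaled to 1000000. Ratios carry conditional exact binomial 95% intervals and levels exact Poisson intervals (scipy 1.17.1). The arithmetic was tested on simulated data. Genes needed 50 UMIs over the libraries compared and 10% of cells in either; "past 1.5-fold" (4-fold between cell types) is a rule of size and no test. No doublet caller was run. A 3′ count does not rank genes against each other per length. Fewer than 13% of 50-base words in the last 500 bases were shared with another gene for the 39 genes, except Fabp3 at 27.9%.

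Values per library are named for the 5 members with the most UMIs, for members past 1.5-fold between ectopic vOLCs and control dOLCs in MOL5/6 or OPCs, and for members 4-fold apart between these cell types; other pathway genes are given by counts and the 3 most extreme ratios in each direction among those past the filter. Members and lists were chosen with earlier results of these data known. Alternatives were TMM factors (edgeR 4.0.16), median-of-ratios factors (DESeq2 1.42.0), no filter, the mean over cells of the CPM of each cell, cells thinned to 1000 UMIs, at most 10% mitochondrial counts, removal of the median of genes of like length (20 bins), weighted subclusters, control vOLCs as the control and, added later, removal of the mature marker share of each gene's MOL5/6 level from its OPC level. Promoters are RefSeq's on GRCm38.p6.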

Additional observations from a re-analysis of the deposited data

Results flagged for a closer look

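Against control dOLCs, ectopic vOLCs differed in opposite directions in the mature and the progenitor cells for 3 genes, with both intervals clear of 0; the difference between the cell types was not tested. Aspa had a log2 ratio of 0.33 in MOL5/6 and −0.87 in OPCs, Elovl7 0.21 and −0.79, and Fabp5 0.30 and −0.40. The MOL5/6 ratio of Elovl7 was −0.10 with subclusters weighted to control dOLCs and −0.23 against control vOLCs, so its opposite directions ended under either. Mature markers stood at 19.9% of their MOL5/6 level in OPCs of control dOLCs and at 7.50% in OPCs of ectopic vOLCs. With that share taken off, Fabp5 in OPCs was at 0.14 and Elovl7 at −0.10, and Aspa had no direction left. Control vOLCs in OPCs stood at 238 CPM for Fabp5, below the 323 CPM of ectopic vOLCs and the 425 CPM of control dOLCs.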

How the results depend on the processing

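Each median and count was recomputed under each alternative that gave it a value, 90 times in all, and 75 of these stayed within the counting range of the median or within 1.5 times the count. The median log2 ratio in MOL5/6 of ectopic vOLCs to control dOLCs (−0.13) turned to 0.032 with TMM factors, 0.060 with median-of-ratios factors and 0.11 in thinned cells, where only 14 genes passed. The median of all genes was 0.13 and 0.16 under the first 2, against −0.03, and the shares of all genes lower and higher by 1.5-fold were 6.995% and 3.49% with TMM and 6.09% and 4.33% with median-of-ratios factors. Against control vOLCs these were 7.81% and 3.98%, and 7.30% and 4.77%. In OPCs against control dOLCs TMM gave 6.82% and 3.86%, and between the control OPCs 15.04% and 8.14%; median-of-ratios factors gave 14.7% and 8.43% for the latter.

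Without a filter beyond 1 UMI the number past 1.5-fold in MOL5/6 was 7 against control dOLCs (6 lower, with 24.3% of all genes lower and 5.68% higher), 9 against control vOLCs (5 lower, 26.0% and 6.17%) and 6 between the controls (4 lower, 9.54% and 13.1%). In OPCs it was 8 (7 lower, 12.5% and 13.2%), 9 (2 lower, 23.4% and 18.3%) and 12 (10 lower, 15.4% and 20.3%) in the same order; this setting adds genes with few UMIs. In thinned cells it was 2 for ectopic vOLCs against control dOLCs in MOL5/6 (all genes 9.79% lower and 2.21% higher), 2 in OPCs (6.35% and 4.82%) and 3 between the controls in OPCs (13.1% and 12.1%), with fewer genes tested. With subclusters weighted it was 1 against control dOLCs and 2 against control vOLCs in MOL5/6 (10.5% and 2.98% for the latter). With the mature marker share taken off it was 3 in OPCs against control dOLCs, Aspa included. The 2.90 computed for Aspa there sets an ectopic remainder within counting error against a floor of 3 UMIs, and gives neither a direction nor a bound. Scd1 in OPCs reversed to 0.54 with the mature marker share taken off and to 0.35 with control vOLCs as the control, where it did not pass the filter and its interval held 0; the cause was not tested. Of the recomputed ratios of single genes, 267 stayed within their counting interval, 122 left it and 3, of values past 1.5-fold, changed sign; turns of smaller values are among the 122 or within their interval.

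No paired analysis was possible because there was only 1 library for every condition. No library was left out for the same reason. Depth limits the smaller sums, such as MOL5/6b of ectopic vOLCs with 138892 UMIs and OPCs of control vOLCs with 394731.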
